A study of Mus musculus with 4 samples.

Results

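The 45 genes described here encode the core machinery that copies DNA in mouse cells: the origin recognition complex (Orc1 to Orc6), the loading factors Cdc6 and Cdt1 with the Cdt1 inhibitor Gmnn, the MCM helicase (Mcm2 to Mcm7) with Mcm10, the firing kinase Cdc7 and Dbf4, Cdc45 and the GINS subunits, the replicative polymerases, the sliding clamp Pcna and its loader (Rfc1 to Rfc5), the lagging-strand enzymes Fen1 and Lig1, the single-strand binding protein RPA and 3 enzymes of deoxynucleotide supply. They were chosen by symbol. All 45 were found, each in a row of its own, among the 14099 named rows of the deposited tables. The RNA came from mouse embryonic stem cells (ESCs) in 4 libraries, 2 of them wild type (WT) and 2 with a knockout of Naa10 (Naa10-KO), as labelled. Naa10 is the catalytic subunit of NatA, which acetylates the N-termini of many proteins during their synthesis. The lines were derived from F1 blastocysts of Naa10-/X C57BL/6 females and JF1 males, JF1 being a distantly related inbred strain, and the WT cells were littermates. All groups were kept in N2B27 medium with the Mek inhibitor PD325901, the Gsk3 inhibitor Chir99021 and LIF, for 5 passages with mouse embryonic fibroblast feeders and 5 without. The labels used here give neither the sex of the lines nor the deleted part of Naa10. The libraries are called biological replicates, with no statement of whether they came from separate lines, so p-values measure only the spread between these libraries.

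Levels are in RPKM, a read density per transcript length and library total. Naa10 shared a row with its neighbour Renbp, with 105 and 106 RPKM for the WT pair but 28.9 and 34.4 RPKM for Naa10-KO replicates 1 and 2, a log2 difference of -1.71 (SE 0.11, limma adjusted p = 0.0342). The limma adjusted p of that row was 0.0817 with rows at 0 and small RNAs left out of the fit, 0.367 without WT replicate 1 and 0.356 without WT replicate 2. All 12 ESC markers, among them Pou5f1, Nanog and Sox2, stood at 1 RPKM or more in every library. Their sum was 5132 and 5217 RPKM in WT, 4400 RPKM in Naa10-KO replicate 1 and 5282 RPKM in replicate 2. The joined row of Dppa5a and Ooep was the largest in that sum. It read 2476 and 2578 RPKM in WT, 1698 RPKM in Naa10-KO replicate 1 and 2018 RPKM in replicate 2. The libraries of the Naa10-KO group were not alike. The 18 fibroblast feeder markers, none of them at 0 in any library, summed to 470 and 489 RPKM in WT, 1254 RPKM in Naa10-KO replicate 1 and 485 RPKM in replicate 2. In replicate 2, 14 of the 18 lay below both WT libraries and 3 above, beside 48.3% and 41.8% of tested rows. The largest values in its sum were those of Fn1 (231 RPKM) and Vim (137 RPKM). The 8 trophoblast markers found, none at 0, summed to 48.8 and 41.7 RPKM in WT and to 102 and 83.1 RPKM in Naa10-KO. Sums ran from 30.8 to 36.0 RPKM over the libraries for primitive endoderm markers, and early differentiation markers summed to 15.3, 16.3, 39.8 and 21.8 RPKM in the same order. Estimated depth, from the steps between low values, was 50800000 and 51800000 fragments for WT, with 74200000 and 85300000 for Naa10-KO. The median absolute log2 difference between the 2 libraries of a group was 0.05 for WT and 0.25 for Naa10-KO over all tested rows.

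Replication starts from origins that are licensed in G1. The origin recognition complex binds DNA, Cdc6 and Cdt1 load the MCM ring around it, and geminin (Gmnn) blocks Cdt1 after S phase has begun so that no origin is licensed again. In S phase the kinase Cdc7-Dbf4, with Cdc45 and GINS, turns the ring into an active helicase, after which polymerase alpha-primase lays primers and polymerases delta and epsilon extend them on the Pcna clamp. Many of these genes are textbook targets of E2F transcription factors, and mouse ESCs, which divide fast with a short G1, are known for high levels of licensing proteins.

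The promoters of the genes are shown for their E2F letters. The choice by symbol used no sequence, but it took replication genes, many of them textbook E2F targets. A higher share of such letters was therefore to be expected from the choice. RefSeq promoters (GRCm38.p6, an assembly other than that of the deposited values) were matched for 37 of the 45 genes. Over the 250 bases before the start, 9 of the 37 (24.3%) held TTTGGCGC, TTTCCCGC, TTTGCCGC or TTTCGCGC on either strand. The share was 4.02% of the 8981 tested genes with a promoter entry and 2.16% of all 27025 genes with one. The 9 were Cdc6, Gins3, Mcm5, Mcm6, Mcm7, Orc1, Orc3, Pola1 and Rfc3. The list depends on the window: over 300 bases, which reach past the start, 14 of the 37 (37.8%) held the letters, beside 4.84% of tested genes, with Cdt1, Lig1, Mcm3, Pold1 and Pole2 added. The CCAAT letters of NF-Y stood in 23 of the 37 (62.2%) against 41.1% of tested genes and 37.5% of all genes with a promoter entry. The CHR letters TTTGAA stood in 6 (16.2%) against 12.2% of tested genes and 18.3% of all genes with a promoter entry. The windows below belong to 3 MCM genes, to 2 origin recognition genes and to 1 clamp loader gene, complexes that the following paragraphs set side by side. Capitals mark the E2F letters. The windows are Mcm5 at chr8:75109259-75109508 on the plus strand, Mcm6 at chr1:128359706-128359955 and Mcm7 at chr5:138171884-138172133 on the minus strand, Orc1 at chr4:108579204-108579453 on the plus strand, and Orc3 at chr4:34614943-34615192 and Rfc3 at chr5:151651209-151651458 on the minus strand. The E2F letters overlap neither CCAAT nor TTTGAA in these windows.
Mcm5: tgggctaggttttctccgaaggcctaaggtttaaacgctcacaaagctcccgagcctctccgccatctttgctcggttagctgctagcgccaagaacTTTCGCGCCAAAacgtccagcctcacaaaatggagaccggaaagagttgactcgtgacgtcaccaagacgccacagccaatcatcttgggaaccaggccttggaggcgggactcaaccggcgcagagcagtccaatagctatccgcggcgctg
Mcm6: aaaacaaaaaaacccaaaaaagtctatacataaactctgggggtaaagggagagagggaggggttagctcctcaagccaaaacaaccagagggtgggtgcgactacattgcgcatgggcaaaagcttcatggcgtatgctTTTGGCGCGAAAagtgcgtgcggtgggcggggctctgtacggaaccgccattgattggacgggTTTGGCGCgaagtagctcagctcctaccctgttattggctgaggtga
Mcm7: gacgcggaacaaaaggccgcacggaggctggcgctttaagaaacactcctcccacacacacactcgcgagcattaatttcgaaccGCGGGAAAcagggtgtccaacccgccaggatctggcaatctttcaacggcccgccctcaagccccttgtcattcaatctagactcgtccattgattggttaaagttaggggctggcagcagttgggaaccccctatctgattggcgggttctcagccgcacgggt
Orc1: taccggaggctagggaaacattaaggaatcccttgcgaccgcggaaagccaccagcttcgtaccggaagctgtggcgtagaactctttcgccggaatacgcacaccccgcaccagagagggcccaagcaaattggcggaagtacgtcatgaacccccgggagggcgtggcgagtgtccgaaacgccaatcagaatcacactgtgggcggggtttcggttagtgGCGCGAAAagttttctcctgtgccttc
Orc3: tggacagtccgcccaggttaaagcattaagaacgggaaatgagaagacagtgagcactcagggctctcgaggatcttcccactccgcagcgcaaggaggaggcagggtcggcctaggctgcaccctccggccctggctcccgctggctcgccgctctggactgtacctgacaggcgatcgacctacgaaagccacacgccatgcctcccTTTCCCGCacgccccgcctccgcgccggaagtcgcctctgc
Rfc3: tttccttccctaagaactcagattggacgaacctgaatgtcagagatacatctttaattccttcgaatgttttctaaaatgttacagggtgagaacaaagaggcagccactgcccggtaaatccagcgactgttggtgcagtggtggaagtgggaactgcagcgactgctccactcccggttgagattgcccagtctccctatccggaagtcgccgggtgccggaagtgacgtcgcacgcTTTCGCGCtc
The Mcm5 window held 2 overlapping matches and the Mcm6 window 3 matches, of which 2 overlap, while the others held 1 each. A match to these letters is a description of the sequence and does not show that a factor binds there.

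More of the replication genes lay below WT than above it. Of the 45 genes, Rfc4 alone passed the threshold (limma on log2(RPKM + 1), Benjamini-Hochberg adjusted p under 0.05 over 11912 tested rows), which 0.764% of tested rows did, 0.218% higher and 0.546% lower. Its call rests on values of exactly 0 in WT and is described with the clamp loader. None of the other 44 passed. Their smallest limma adjusted p was 0.118, for Rfc1. In limma fits with Naa10-KO replicate 1 or 2 left out, where the lone knockout library is assumed to vary like the WT pair, 18 and 31 of the 45 genes passed, beside 4938 and 7081 of all tested rows. At an unadjusted p under 0.05 there were 10 lower genes and 2 higher ones (Cdt1 and Rfc5), together 27.3% of the 44, against 22.1% of all tested rows, 13.2% lower and 8.90% higher. Both Naa10-KO libraries lay below both WT libraries for 22 of the 44 genes (50.0%), as for 34.9% of tested rows. They lay above both for 5 genes (11.4%), namely Cdt1, Rfc5, Pold1, Mcm2 and Mcm7, as for 24.4% of tested rows. On opposite sides of WT lay 11 genes (25.0%), as 25.3% of tested rows did. Among the 6023 tested rows at 10 RPKM or more in WT, 35.0% lay below and 26.6% above. Centring each library on its median row left 16 of the 44 genes below both WT libraries and 6 above. The shares of tested rows given here are for values without this centring, so they are no background for these counts.

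The lower side was mainly that of Naa10-KO replicate 1. That library lay below both WT libraries for 36 of the 44 genes (81.8%), against 54.6% of tested rows, and the 44 genes had a median log2 difference of -0.25 there. Replicate 2 lay below for 24 genes (54.5%) against 48.3% of tested rows, with a median of -0.03. Replicate 1 lay above both WT libraries for 5 genes against 38.3% of tested rows and replicate 2 for 17 genes against 41.8%. Over both libraries the median was -0.12 for the 44 genes and -0.05 for tested rows without a 0, whose medians in replicates 1 and 2 were -0.08 and -0.02. Replicate 1 is also the library with the higher fibroblast marker sum and the lower ESC marker sum. The median log2 difference of the 18 fibroblast markers was 1.12 in replicate 1 and -0.52 in replicate 2, and that of the 12 ESC markers was -0.23 and 0.25. In replicate 1, 7 of the 12 ESC markers lay below both WT libraries and 5 above, beside 54.6% and 38.3% of tested rows. The ESC marker sum was dominated by the joined row of Dppa5a and Ooep. The part of the cell makeup in the replication values was not tested. In bulk RNA, fewer cells of a type, such as cells in S phase, and less RNA per cell cannot be told apart.

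**Figure D1:**
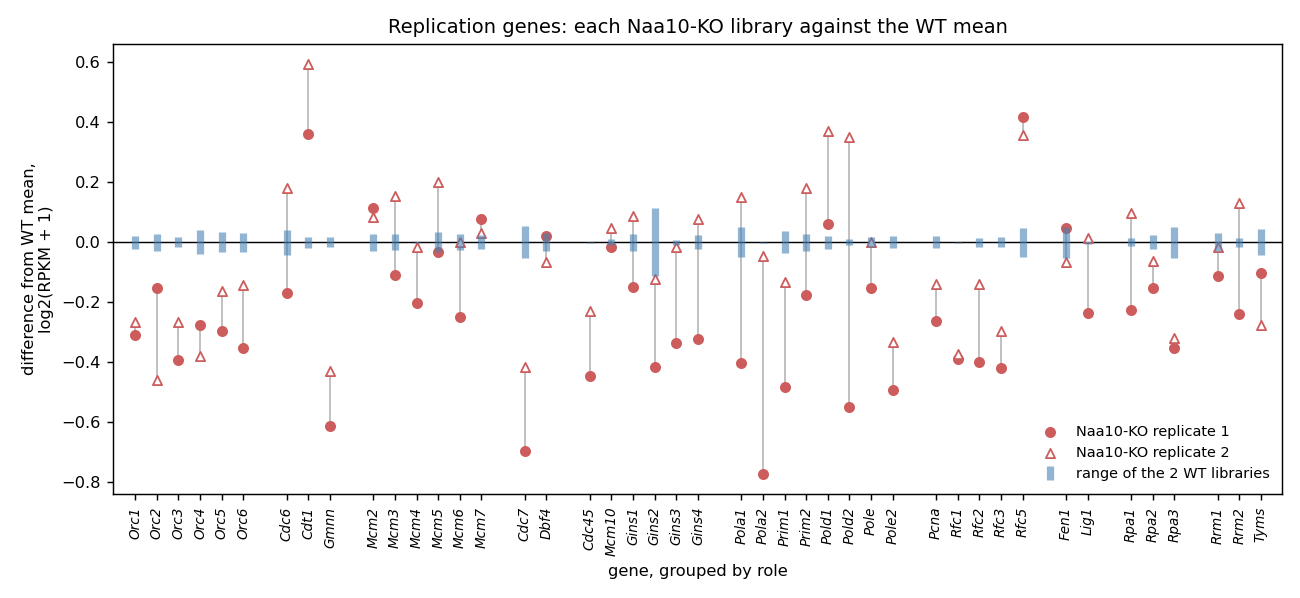
Log2 difference in RPKM + 1 of each replication gene from the WT mean, with the 44 genes without a value of 0 grouped by role along the horizontal axis, a point each for Naa10-KO replicates 1 and 2 and a bar for the range of the 2 WT libraries. Both points of the 6 origin recognition genes lie below 0, and those of Cdt1 and Rfc5 above 0, while Pola2 and Pold2 have their points far apart.

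As a class these genes were strongly expressed. The median replication gene stood at 47.3 and 51.3 RPKM in WT, and at 36.5 and 42.5 RPKM in the knockout, where the median tested row stood between 9.64 and 10.2 RPKM. Pcna, the sliding clamp, was the highest of the 45 in every library and Gins3, a GINS subunit, the lowest of those without a 0.

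The subunits of the origin recognition complex lay lower together: all 6 were below both WT libraries in both Naa10-KO libraries, at 78.0% to 84.9% of the WT mean, although none passed the threshold. Of all tested rows, 34.9% lay below in the same way. Orc1, the large ATPase subunit, stood at 38.6 and 39.8 RPKM in WT compared with 31.4 and 32.4 RPKM in Naa10-KO (log2 difference -0.29, SE 0.07, limma adjusted p = 0.157). Orc3 stood at 27.7 and 28.4 RPKM in the WT pair versus 21.1 and 23.2 RPKM in Naa10-KO (log2 difference -0.33, SE 0.09, limma adjusted p = 0.164). For both genes the WT values lay close together and the groups did not overlap. Orc4, an ATPase subunit and the lowest of the complex, read 11.2 and 11.9 RPKM in WT compared with 9.40 and 8.68 RPKM in Naa10-KO. Orc2 read 36.0 and 37.5 RPKM in WT, 32.9 RPKM in Naa10-KO replicate 1 and 26.4 RPKM in replicate 2. For Orc2 and Orc4 replicate 2 was the lower library, and for the other 4 subunits replicate 1. Orc5 read 29.2 and 30.6 RPKM against 24.2 and 26.6 RPKM, and Orc6 read 73.1 and 76.3 RPKM against 58.2 and 67.6 RPKM. The median log2 difference of the complex was -0.30, with -0.30 in replicate 1 and -0.27 in replicate 2, so the median of the complex was near the same in the Naa10-KO libraries, unlike that of the 44 genes. Centring each library on its median row left all 6 lower and apart, with a median of -0.23. Orc1, Orc3 and Orc4 overlap protein-coding neighbours in RefSeq. The row of Prpf38a, a splicing factor gene overlapping Orc1, was also lower (55.3 and 58.6 RPKM in WT, then 43.9 and 46.1 RPKM in Naa10-KO), as was Rars2, a mitochondrial arginyl-tRNA synthetase gene overlapping Orc3 (15.1 and 16.3 against 12.0 and 12.9 RPKM). How reads were divided between such neighbours is not stated in the labels.

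The median of the MCM ring, which the complex helps to load, lay near WT. Its 6 subunits had a median log2 difference of 0.04. None reached an unadjusted limma p under 0.05, which 22.1% of all tested rows did. In Naa10-KO replicate 1, 3 of the 6 lay below both WT libraries and 2 above, beside 54.6% and 38.3% of tested rows. Mcm6 and Mcm4 were the lowest there, at 84.0% and 86.9% of the WT mean. In replicate 2, 1 lay below and 4 above, beside 48.3% and 41.8%. Mcm2 read 162 and 169 RPKM in the WT pair versus 179 and 176 RPKM in Naa10-KO (log2 difference 0.10, SE 0.06, limma adjusted p = 0.416). Mcm7 read 195 and 202 RPKM in WT compared with 210 and 203 RPKM in Naa10-KO, narrowly above. These subunits were the only ring genes with both Naa10-KO libraries above WT, and Mcm4 was the only one with both below, at 151 and 151 RPKM in the WT pair versus 131 and 149 RPKM, a separation that did not hold under median centring or quantile normalization. Mcm3, the highest of the ring in every library, read 235 and 243 RPKM in WT, 221 RPKM in replicate 1 and 266 RPKM in replicate 2. Mcm6 read 188 and 195 RPKM in WT compared with 161 and 192 RPKM in Naa10-KO. Mcm5, the lowest of the ring, read 118 and 124 RPKM in the WT pair versus 118 and 139 RPKM in Naa10-KO. Levels within the ring differed little: the highest subunit exceeded the lowest 1.98-fold and 1.96-fold in WT and 1.87-fold and 1.91-fold in Naa10-KO. In the origin recognition complex that ratio, Orc6 to Orc4, was 6.50 and 6.40 in WT and 6.19 and 7.78 in Naa10-KO. No test of the difference between the complexes was made. Both hold promoters with E2F letters: of the 9 genes with such letters 4 lay below both WT libraries and 1 above, and of the 27 without them 14 lay below and 4 above. With the window of 300 bases, 5 of 14 genes with the letters lay below and 3 above, and of the 22 without them 13 lay below and 2 above. Of all tested rows, 34.9% lay below and 24.4% above.

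**Figure D2:**
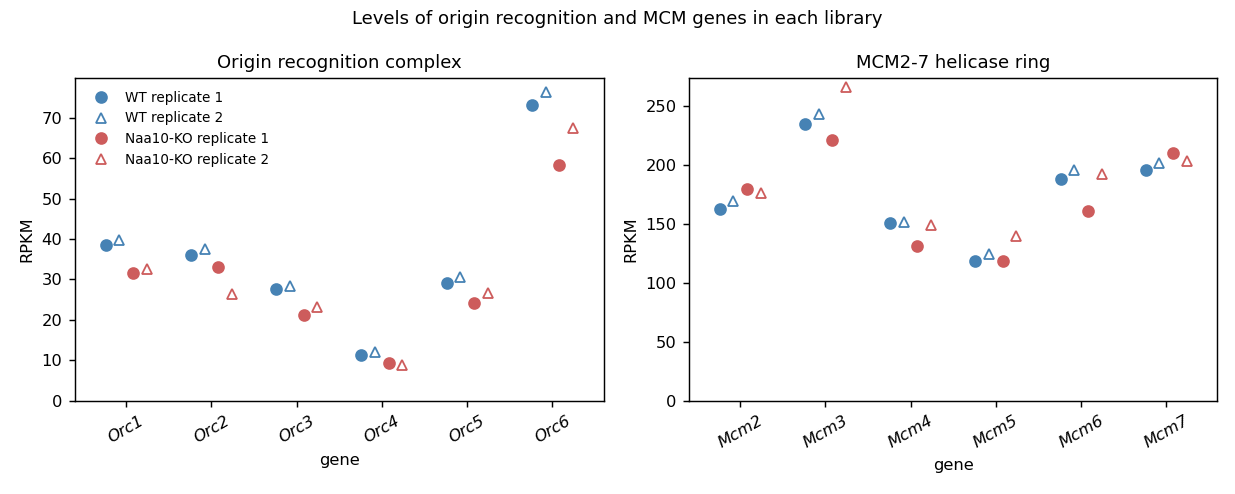
RPKM per library of the 6 origin recognition genes and the 6 MCM ring genes, in panels with their own vertical axes from 0 and 1 point for each of the 4 libraries. Naa10-KO points lie under the WT points for every origin recognition gene, whereas those of the MCM genes lie under, among or above the WT points. Replicate 1 lies under both WT points for Mcm3, Mcm4 and Mcm6.

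The licensing factors lay on different sides of WT, with Cdt1 above and its inhibitor Gmnn below. Cdt1, which brings the MCM ring to the origin, read 105 and 108 RPKM in WT compared with 137 and 161 RPKM in Naa10-KO (log2 difference 0.48, SE 0.10, limma adjusted p = 0.137). Gmnn read 53.3 and 54.6 RPKM in the WT pair versus 35.0 and 39.8 RPKM in Naa10-KO (log2 difference -0.52, SE 0.10, limma adjusted p = 0.119). Neither gene passed the threshold, and for neither did the groups overlap. Such separation is common here: 24.4% of all tested rows lay above both WT libraries and 34.9% below both. The ratio of Cdt1 to Gmnn RPKM, a pair chosen after its values were seen, was 1.97 and 1.98 in WT and 3.92 and 4.05 in Naa10-KO. Here the Naa10-KO libraries lay close together. With Cdt1 above WT and Gmnn below, the ratio had to separate the groups. Cdc6, the ATPase that works with Cdt1, read 22.7 and 24.1 RPKM in WT, 20.7 RPKM in replicate 1 and 26.6 RPKM in replicate 2, on opposite sides of WT. Neither Cdt1 nor Gmnn overlaps another protein-coding gene in RefSeq.

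The firing kinase subunits also differed. Cdc7, the catalytic subunit, read 9.54 and 8.79 RPKM in WT compared with 5.28 and 6.62 RPKM in Naa10-KO (log2 difference -0.55, SE 0.15, limma adjusted p = 0.158), with both libraries below WT. Dbf4, its activating subunit, read 103 and 99.2 RPKM in the WT pair versus 103 and 96.8 RPKM in Naa10-KO, so its groups overlapped. The ratio of Dbf4 to Cdc7 RPKM, not among the planned comparisons, was 10.8 and 11.3 in WT and 19.5 and 14.6 in Naa10-KO. It follows the lower Cdc7 values and is no further result.

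**Figure D3:**
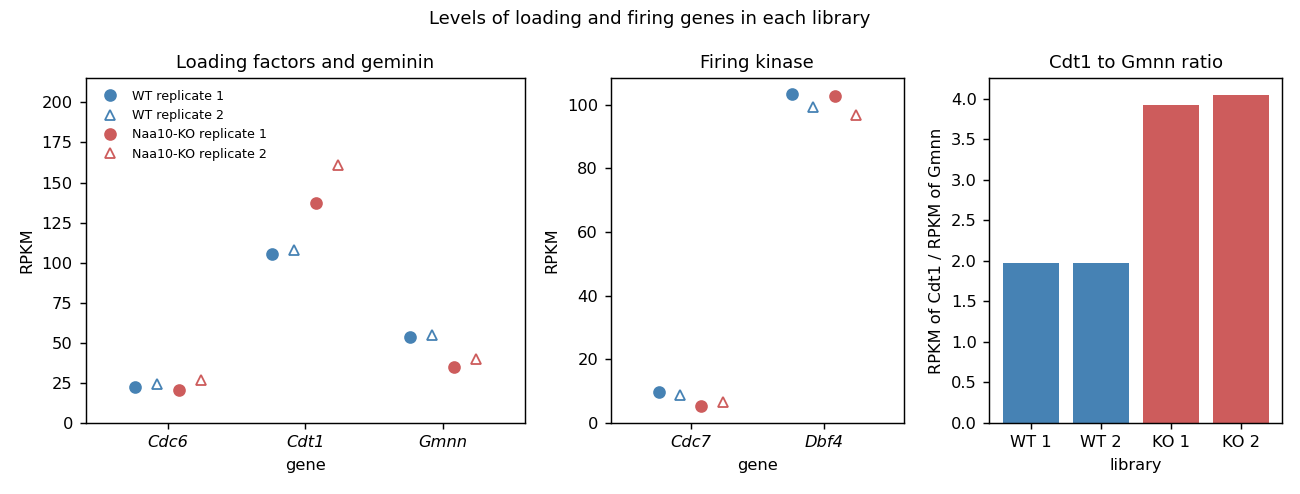
RPKM per library of the licensing factors Cdt1, Gmnn and Cdc6 and of the kinase subunits Cdc7 and Dbf4, with 1 point per library, and bars of the Cdt1 to Gmnn ratio in each library, on separate axes starting at 0. Cdt1 points lie higher in Naa10-KO than in WT, Gmnn and Cdc7 points lie lower, and Dbf4 points overlap, and the ratio is 1.97 and 1.98 in WT but 3.92 and 4.05 in Naa10-KO.

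The genes that activate the helicase split by library. All 6 (Cdc45, Mcm10 and the 4 GINS genes) lay below both WT libraries in Naa10-KO replicate 1, with a median log2 difference of -0.33, whereas replicate 2 had 3 above and 3 below and a median of 0.02. Of all tested rows, 54.6% lay below in replicate 1, and 48.3% lay below and 41.8% above in replicate 2. Cdc45, the helicase cofactor that joins MCM and GINS, read 31.8 and 31.9 RPKM in WT compared with 23.1 and 27.0 RPKM in Naa10-KO (log2 difference -0.34, SE 0.11, limma adjusted p = 0.198) and lay below WT in both libraries. Gins2 read 45.4 and 53.2 RPKM in the WT pair versus 36.6 and 45.1 RPKM in Naa10-KO, and Gins3 read 4.72 and 4.65 RPKM versus 3.51 and 4.62 RPKM, both with replicate 2 just under the lower WT value. Neither separation held under median centring. Gins2 overlaps Gse1, a chromatin protein gene with values of 19.3 and 18.8 RPKM in WT compared with 27.8 and 31.6 RPKM in Naa10-KO. Gins4 read 53.3 and 55.1 RPKM in WT, 43.1 RPKM in replicate 1 and 57.2 RPKM in replicate 2, which lie on opposite sides of WT. Gins1 (36.4 and 38.0 RPKM in WT, 33.4 and 39.5 RPKM in the knockout) and Mcm10 (24.1 and 23.8 RPKM in WT, 23.7 and 24.8 RPKM in the knockout) did the same, with narrower gaps between the Naa10-KO libraries. The ratio of the highest GINS subunit, Gins4, to the lowest, Gins3, was 11.3 and 11.8 in WT and 12.3 and 12.4 in Naa10-KO.

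The widest gaps between the Naa10-KO libraries among the 44 genes were those of Pold2, Pola2 and Pola1, all polymerase genes. Of the 8, 7 lay below both WT libraries in replicate 1 (median log2 difference -0.44) and 4 lay above both in replicate 2 (median 0.08). The shares of all tested rows were 54.6% and 41.8%. Pold2, the second subunit of polymerase delta, read 97.3 and 96.0 RPKM in WT, 65.8 RPKM in replicate 1 and 124 RPKM in replicate 2. Its mean log2 difference of -0.10 (SE 0.33, limma adjusted p = 0.871) thus hides values on either side of WT. Pold2 overlaps Aebp1, a gene expressed in fibroblasts and other stromal cells, which was listed at 0, 0, 20.0 and 0 RPKM in WT replicates 1 and 2 and Naa10-KO replicates 1 and 2, so the library with the lowest Pold2 value was the one with a value for Aebp1. What part the division of reads between these genes has in the gap was not tested. An exact 0 in these tables can be a failed estimate, as described for the clamp loader below. Pola2, the second subunit of polymerase alpha, read 50.5 and 50.6 RPKM in WT, 29.2 RPKM in replicate 1 and 49.0 RPKM in replicate 2, and it has no overlapping protein-coding gene in RefSeq. Pola1, the X-linked catalytic subunit, read 16.2 and 17.5 RPKM in WT, 12.5 RPKM in replicate 1 and 18.8 RPKM in replicate 2.

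Gaps were smaller for the other polymerase subunits. Pole2, the second subunit of the leading-strand polymerase epsilon, read 22.6 and 22.0 RPKM in the WT pair versus 15.6 and 17.5 RPKM in Naa10-KO (log2 difference -0.41, SE 0.10, limma adjusted p = 0.149). Its groups did not overlap, and 34.9% of all tested rows likewise lay below both WT libraries. The catalytic subunit Pole read 23.4 and 23.9 RPKM in WT compared with 21.2 and 23.7 RPKM in Naa10-KO. Prim1, the primase, read 38.0 and 40.0 RPKM in the WT pair versus 27.6 and 35.5 RPKM in Naa10-KO, and its partner Prim2 read 31.1 and 29.9 RPKM in WT compared with 26.9 and 34.6 RPKM in Naa10-KO. Pold1, the catalytic subunit of polymerase delta, was the polymerase gene with both Naa10-KO libraries above WT, at 35.4 and 34.3 RPKM in the WT pair versus 36.4 and 45.3 RPKM in Naa10-KO.

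**Figure D4:**
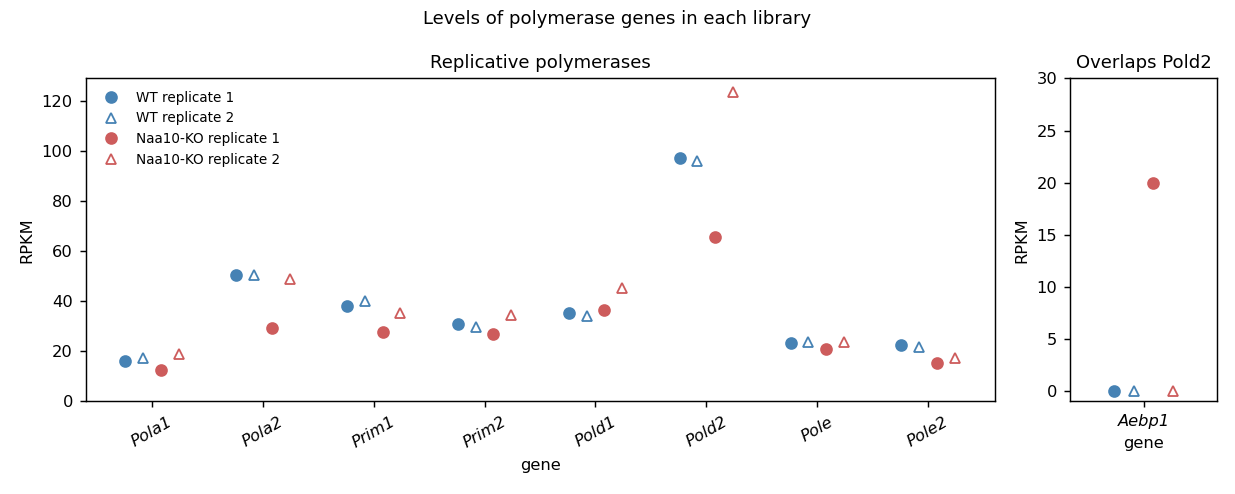
RPKM per library of the 8 polymerase genes and of Aebp1, which overlaps Pold2, with 1 point per library on linear axes that include 0. Every polymerase gene except Pold1 has its lowest point in Naa10-KO replicate 1, and Pola2 and Pold2 have the widest gaps to replicate 2. Aebp1 is listed above 0 in replicate 1 only.

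Subunits of the clamp loader lay on both sides of WT, with Rfc5 above and Rfc1, Rfc2 and Rfc3 below. The pentamer of Rfc1 to Rfc5 opens the Pcna ring at primer ends. Rfc1, its largest subunit, read 51.7 and 51.9 RPKM in WT compared with 39.3 and 39.8 RPKM in Naa10-KO (log2 difference -0.38, SE 0.07, limma adjusted p = 0.118). Rfc3 read 40.5 and 39.6 RPKM in the WT pair versus 29.7 and 32.4 RPKM in Naa10-KO (log2 difference -0.36, SE 0.08, limma adjusted p = 0.145). Rfc2 read 65.4 and 64.1 RPKM in WT compared with 48.9 and 58.7 RPKM in Naa10-KO. These 3 subunits lay below WT in both libraries, as 34.9% of all tested rows did, while 24.4% lay above. Rfc5 lay above, at 49.2 and 52.7 RPKM in the WT pair versus 68.4 and 65.6 RPKM in Naa10-KO (log2 difference 0.39, SE 0.08, limma adjusted p = 0.130). The ratio of Rfc5 to Rfc3 RPKM, not among the planned comparisons, was 1.21 and 1.33 in WT and 2.30 and 2.02 in Naa10-KO. With Rfc5 above WT and Rfc3 below, this ratio had to separate the groups and is no further result. Rfc1, Rfc3 and Rfc5 stayed apart from WT in these directions under median centring and quantile normalization.

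Rfc4 had a listed value of 0 in each WT library, while Naa10-KO had 31.7 and 35.7 RPKM (adjusted p = 0.00295 by limma), and no fold is given. It is an essential subunit of a complex every dividing cell uses, and its neighbours in the pentamer were at 39.6 RPKM or more in WT. Rfc4 overlaps Eif4a2, a translation initiation helicase gene on chromosome 16. The joined row of Eif4a2 with Snora81 and Snord2 read 181 and 185 RPKM in WT compared with 50.5 and 70.5 RPKM in Naa10-KO (log2 difference -1.60, SE 0.18, limma adjusted p = 0.0803), so the overlapping rows differed in opposite directions. An exact 0 in these tables can be a failed estimate: 323 rows were at 0 in at least 1 library, and Eef1a1, a translation elongation factor that every cell uses, was listed at 0 in Naa10-KO replicate 2. Whether Rfc4 RNA differed between the genotypes was therefore not settled by these values.

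**Figure D5:**
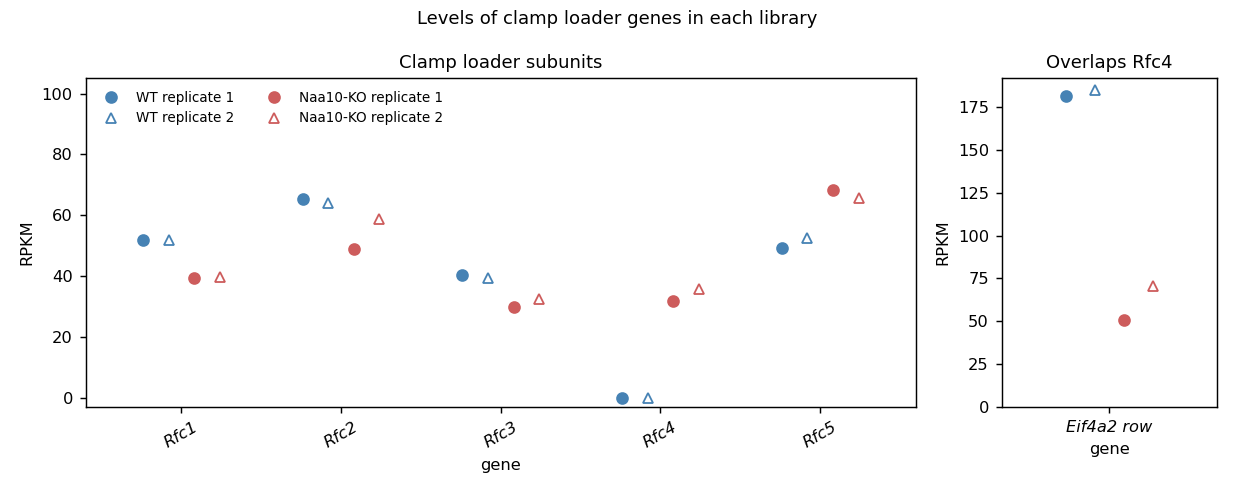
RPKM per library of the 5 clamp loader genes and of the Eif4a2 row that overlaps Rfc4, with 1 point per library on linear axes that include 0. Rfc4 sits at 0 in both WT libraries, the Eif4a2 row is lower in Naa10-KO, and Rfc5 lies above WT while Rfc1, Rfc2 and Rfc3 lie below.

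Pcna itself read 422 and 434 RPKM in the WT pair versus 357 and 389 RPKM in Naa10-KO (log2 difference -0.20, SE 0.07, limma adjusted p = 0.235), below WT in both libraries. Named pseudogenes of Pcna and of Tyms exist, and reads shared with them cannot be separated here. Fen1, the flap nuclease of the lagging strand, read 40.3 and 43.3 RPKM in WT compared with 43.2 and 39.9 RPKM in Naa10-KO, so its groups overlapped. Tmem258, which overlaps Fen1 in RefSeq, read 214.1 and 204.1 RPKM in WT compared with 149.8 and 168.5 RPKM in Naa10-KO. Lig1, the ligase that seals the fragments, read 117 and 118 RPKM in the WT pair versus 99.4 and 118 RPKM in Naa10-KO. Its replicate 1 lay below both WT libraries, at 84.8% of the WT mean, and replicate 2 narrowly above.

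Within RPA, which coats single-stranded DNA, the smallest subunit differed most. Rpa3 read 33.9 and 36.4 RPKM in WT compared with 27.3 and 28.0 RPKM in Naa10-KO (log2 difference -0.34, SE 0.08, limma adjusted p = 0.151). Rpa2 read 63.5 and 65.6 RPKM in the WT pair versus 57.9 and 61.7 RPKM in Naa10-KO, and the large subunit Rpa1 read 83.4 and 85.0 RPKM in WT compared with 71.8 and 90.1 RPKM in Naa10-KO, on opposite sides of WT. Of the nucleotide enzymes, the ribonucleotide reductase subunits Rrm1 (51.9 and 54.2 RPKM in WT, then 49.0 and 52.4 RPKM in Naa10-KO) and Rrm2 (162 and 159 RPKM in WT, then 135 and 176 RPKM in Naa10-KO) showed no separation of the groups. The ratio of Rrm2 to Rrm1 RPKM was 3.12 and 2.93 in WT and 2.77 and 3.35 in Naa10-KO, so its groups overlapped. Thymidylate synthase, Tyms, read 15.9 and 17.0 RPKM in the WT pair versus 15.2 and 13.4 RPKM in Naa10-KO, below WT in both.

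Among other genes of the pathway, none of the listed groups had a row past the threshold. Of 27 fork and firing factors outside the 45, 14 lay below WT in both Naa10-KO libraries and 4 above, with a median log2 difference of -0.17 (51.9% below and 14.8% above, beside 34.9% and 24.4% of all tested rows). An unadjusted limma p under 0.05 was found for 7 (25.9%), near the 22.1% of all tested rows. Topbp1, a scaffold for helicase assembly and checkpoint signalling, read 47.2 and 47.1 RPKM in WT compared with 34.2 and 32.6 RPKM in Naa10-KO (log2 difference -0.49, limma adjusted p = 0.102). Tipin, of the fork protection complex, read 102 and 108 RPKM in the WT pair versus 76.1 and 81.5 RPKM in Naa10-KO. Chtf8, of an alternative clamp loader, read 31.2 and 31.5 RPKM in WT compared with 39.2 and 41.2 RPKM in Naa10-KO. Topbp1 and Tipin thus lay below WT and Chtf8 above, without overlap of the groups.

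Of 9 chromatin assembly genes, 6 lay below WT and 0 above (median -0.16), beside 34.9% and 24.4% of all tested rows, and 2 had an unadjusted limma p under 0.05 (22.2% against 22.1%). Nasp, a histone chaperone, read 188 and 204 RPKM in the WT pair versus 156 and 152 RPKM in Naa10-KO. Hat1, a histone acetyltransferase acting on new histone H4, read 217 and 230 RPKM in WT compared with 157 and 180 RPKM in Naa10-KO. Slbp, which binds histone mRNA, read 95.0 and 97.6 RPKM in the WT pair versus 55.8 and 80.4 RPKM in Naa10-KO. Each of these genes lay below WT in both libraries. Of 15 further nucleotide supply rows 7 lay below and 3 above (median -0.13), which is 46.7% and 20.0% beside 34.9% and 24.4% of all tested rows, with 2 at an unadjusted limma p under 0.05 (13.3% against 22.1%). The joined row holding Cad, the first enzyme of pyrimidine synthesis, read 53.2 and 53.0 RPKM in WT compared with 63.0 and 66.8 RPKM in Naa10-KO, and Gart, a purine synthesis enzyme, 104 and 108 RPKM compared with 117 and 123 RPKM. The joined row holding Impdh2, of guanine nucleotide synthesis, lay on the other side, with 506 and 517 RPKM in the WT pair versus 400 and 450 RPKM. Of 9 genes of licensing factor destruction, 2 lay below and 3 above (median 0.11), which is 22.2% and 33.3% beside 34.9% and 24.4% of all tested rows, with 2 at an unadjusted limma p under 0.05 (22.2% against 22.1%). Dtl, the ubiquitin ligase receptor that targets Cdt1 for destruction on Pcna, read 30.6 and 31.6 RPKM in the WT pair versus 17.2 and 23.6 RPKM in Naa10-KO (log2 difference -0.60, limma adjusted p = 0.174), below WT in both libraries. Cul4b, a scaffold of the same ligase family, lay above, with 75.6 and 78.5 RPKM compared with 86.8 and 91.6 RPKM, as did the joined row holding Fzr1, an activator of the anaphase-promoting complex, with 53.0 and 52.8 RPKM compared with 57.9 and 57.9 RPKM.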

How the data were processed

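Polyadenylated RNA of 2 WT and 2 Naa10-KO libraries was measured. The values are RPKM as deposited, per the file headers, with each library in its own table. Cufflinks, bedtools and build mm9 appear in the submitters' processing notes. Aligner, annotation and strand: not given in the sources used here. Samples were grouped by their labels.

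Of 14099 rows, 11912 reached 1 RPKM in 2 or more of the 4 libraries, and limma 3.58.1 (R 4.3.3) tested these, with trend, two-sided, on log2(RPKM + 1), with Benjamini-Hochberg adjustment over all of them. The fit had 2 residual and 1.94 prior degrees of freedom. A fold on this scale understates the change of low genes. Rows at exactly 0 in a library are given as values without a fold. Gene counts and medians were computed in Python 3.11.15 with pandas 2.3.3 and carry no test of their own. Relative depth came from steps between values of rows up to 75 nt, and totals assume fragments of 200 nt; 41.3% of low values came out whole within 0.05, so no count test was run. The mean chi-square per gene was 1.87 over 400 genes between the WT libraries and 48.9 over 426 between the Naa10-KO libraries, so the libraries of a group were kept as separate samples.

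The members and lists were chosen with earlier results of these data known. All 45 genes are named by symbol, and each further list contributes the rows with its 3 smallest p. RefSeq tables of GRCm38.p6 supplied overlapping genes and promoter letters only. The alternatives were another pseudocount, other filters, rows at 0 and small RNAs or joined rows left out, median centring, quantile normalization, no trend, a replicate block and each library left out.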

Additional observations from a re-analysis of the deposited data

How the results depend on the processing

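The 91 rows past the threshold among all tested rows became 40 with no filter, 0 with rows at 0 and small RNAs left out (limma; 2624 of 11658 rows then had an unadjusted p under 0.05) and 44 with the replicate block; leaving out 1 library gave 12 to 7081. The count among replication genes, 1 with all libraries, was 1 with the replicate block and 0 with rows at 0 left out, since Rfc4 then leaves the fit, and 1 to 31 with 1 library left out (18 without Naa10-KO replicate 1, 31 without replicate 2). Those fits assume that the lone Naa10-KO library varies like the WT pair. With 1 library left out, 5 to 17 replication genes had every remaining Naa10-KO library above every remaining WT library, and 23 to 36 had them below. The 17 genes above are a placement of Naa10-KO replicate 2 alone, beside 41.8% of tested rows. The 36 genes below are a placement of replicate 1 alone, beside 54.6%. The median of the 44 genes stayed negative, from -0.25 to -0.03 with 1 library left out and -0.06 after median centring. Same-numbered libraries did not deviate together (correlation -0.13 over 11768 rows), so the numbers were not taken as pairs; the crossed pairing, chosen after seeing the data, gave 133 rows past the threshold and 1 among the replication genes.

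Of the 44 genes, 38 kept the sign of their difference under every setting with all libraries. Median centring turned Dbf4 (0.043), Gins1 (0.033), Fen1 (0.056), Rpa1 (2.32e-05), Rrm1 (0.0012) and Rrm2 (0.011), and quantile normalization turned Fen1 (0.0021). With 1 library left out, the sign turned for 16 genes. Their log2 differences ran from -0.11 to 0.15 for Mcm3, from -0.17 to 0.18 for Cdc6, from -0.065 to 0.020 for Dbf4, from -0.18 to 0.18 for Prim2, from -0.066 to 0.047 for Fen1, from -0.25 to 0.00069 for Mcm6, from -0.15 to 0.086 for Gins1, from -0.32 to 0.077 for Gins4, from -0.40 to 0.15 for Pola1, from -0.55 to 0.35 for Pold2, from -0.15 to 0.0023 for Pole, from -0.24 to 0.013 for Lig1, from -0.23 to 0.096 for Rpa1, from -0.24 to 0.13 for Rrm2, from -0.032 to 0.20 for Mcm5 and from -0.014 to 0.048 for Mcm10. The cause of these shifts was not tested. Gins3 has no value under the filter at a mean of 5 RPKM. The 2 libraries per group limit the precision of these values.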

Other observations

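Cell cycle genes around the replication machinery were set beside it, with no row past the threshold in limma. Of 28 tested genes of E2F and G1/S control, 10 lay above both WT libraries in both Naa10-KO libraries and 10 below, with a median log2 difference of 0.01. Both shares were 35.7%, beside 24.4% above and 34.9% below over all tested rows. The cyclins differed in direction. Ccnd1, a D-type cyclin of G1, read 24.2 and 25.4 RPKM in WT compared with 52.4 and 39.4 RPKM in Naa10-KO (log2 difference 0.85, limma adjusted p = 0.127). Its kinase partner Cdk4 read 307 and 323 RPKM in the WT pair versus 381 and 393 RPKM in Naa10-KO. Ccne1, the cyclin that drives entry into S phase, read 163 and 164 RPKM in WT compared with 134 and 132 RPKM in Naa10-KO (log2 difference -0.29, limma adjusted p = 0.134). Ccnd1 is also expressed by fibroblasts, and the fibroblast marker sum was higher in Naa10-KO replicate 1, the library with the higher Ccnd1 value; its part in that value was not tested.

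Of 12 replication checkpoint genes, 8 lay below WT (66.7%) and 1 above (8.33%), with a median of -0.21, beside the same 34.9% and 24.4% of all tested rows. Rad9a, of the clamp that activates the checkpoint kinase Atr, read 52.4 and 55.3 RPKM in the WT pair versus 29.5 and 38.9 RPKM in Naa10-KO. The joined row of Atrip, the Atr partner, and Trex1 was the one above, at 10.3 and 10.6 RPKM in WT compared with 16.2 and 15.3 RPKM in Naa10-KO. Cdc25c, a mitotic phosphatase, read 13.0 and 12.6 RPKM in WT compared with 8.74 and 9.72 RPKM in Naa10-KO. Of 26 mitosis genes, 12 lay below (46.2%, beside 34.9%) and 3 above (11.5%, beside 24.4%), with a median of -0.12 and medians of -0.17 and -0.18 in Naa10-KO replicates 1 and 2. Ube2c, a ubiquitin carrier of the anaphase-promoting complex, read 245 and 241 RPKM in the WT pair versus 327 and 368 RPKM in Naa10-KO, and Hmmr, a spindle protein, read 59.1 and 58.2 RPKM in WT compared with 44.9 and 45 RPKM in Naa10-KO. Cenpf, a kinetochore protein, read 18.7 and 18.5 RPKM in the WT pair versus 14.1 and 12.1 RPKM in Naa10-KO.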
